A study of Homo sapiens with 20 samples.

Results

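ZIC1, ZIC2, ZIC4 and ZIC5 encode zinc finger transcription factors of the ZIC family. They were taken as the 4 coding records of the deposited catalogue that carry these symbols, out of 20237 coding records and 38369 records in all. Each of the 4 symbols had a single record, and none of these records was merged with another gene. Of the 4 members, 3 had a mean FPKM (fragments scaled to transcript length and to all mapped fragments) of at least 1 over the 7 days, the minimum used for the 11793 coding records that serve as background. ZIC4, with a mean of 0.648 FPKM, was below it.

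ZIC proteins carry a domain of C2H2 zinc fingers related to that of the GLI factors, which execute Hedgehog signalling, and they act as transcription factors and cofactors. In vertebrate embryos they are expressed in the neural plate border, the dorsal neural tube and its derivatives, including cerebellar granule neuron precursors, where they are known for keeping progenitors dividing. Loss of ZIC2 causes holoprosencephaly, a failure of the forebrain to divide, and loss of ZIC1 together with ZIC4 is linked to the Dandy-Walker malformation of the cerebellum. Members lie head to head in pairs, ZIC1 with ZIC4 and ZIC2 with ZIC5.

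The cells were neural progenitors made from the established human embryonic stem cell line H1, with no allele engineered in any group. At day 0 they were in proliferation medium with FGF, which sustains progenitor division, on Matrigel. From then on FGF was withdrawn and BDNF, a neurotrophin, was supplied, and polyadenylated RNA was sequenced at day 0 and then on days 1, 2 and 4 and on days 5, 11 and 18. There were 20 samples, 3 on each day except day 5, which had 2. All come from 1 line, and the cells of days 5, 11 and 18 had been moved at day 4 to poly-D-lysine and laminin, so culture surface and time cannot be told apart across that step. The files give 1 FPKM value per record and day, estimated over the cultures of that day. These values carry no spread between cultures and no depth, so none is given here, and whether neighbouring levels differ beyond their spread was not tested. The authors' own tests of neighbouring days were not used.

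In the hg19 build, ZIC1 lies at chr3:147127181-147134504 on the plus strand with 3 exons, and ZIC4 at chr3:147103837-147124407 on the minus strand with 6 merged exons from 3 transcripts. ZIC2 lies at chr13:100634319-100639018 on the plus strand with 3 exons, and ZIC5 at chr13:100615275-100624178 on the minus strand with 2 exons. The kinship of the members can be read in a coding exon, which is shown for ZIC1 and for ZIC5. In the deposited values, ZIC5 was the member that differed most between day 0 and day 18. The whole second exon of ZIC1 is 164 bases at chr3:147130305-147130468. The stretch of ZIC5 that aligned to it is chr13:100617904-100618073 on the minus strand, inside its second exon. All bases shown are coding sequence in GENCODE, read 5′ to 3′ on the strand of the gene from GRCh37, and capitals mark bases that were substituted or inserted relative to ZIC1.
ZIC1: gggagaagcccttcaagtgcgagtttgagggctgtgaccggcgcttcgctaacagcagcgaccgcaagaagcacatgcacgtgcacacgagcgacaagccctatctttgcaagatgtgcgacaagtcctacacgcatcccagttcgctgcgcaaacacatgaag
ZIC5: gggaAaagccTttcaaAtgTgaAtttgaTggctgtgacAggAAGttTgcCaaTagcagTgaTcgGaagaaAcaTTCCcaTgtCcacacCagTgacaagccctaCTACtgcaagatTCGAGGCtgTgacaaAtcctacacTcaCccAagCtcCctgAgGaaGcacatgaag

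ZIC5 kept 124 of the 164 bases of the ZIC1 exon (75.6%), with 40 substituted and 6 inserted. Over all exons, the longest stretch identical between any pair of members was 43 bases, between ZIC1 and ZIC2, and no window as long as a sequencing read matched between members with up to 2 mismatches.

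The members were measured at very different levels, and their order was the same on all 7 days: ZIC2, then ZIC1, ZIC5 and ZIC4. ZIC2, the factor named above for holoprosencephaly, stood at 29.9 FPKM on day 0, 27.1 on day 1, 29.1 on day 2, 31.1 on day 4, 31.4 on day 5, 25.8 on day 11 and 15.6 on day 18. It stayed between 25.8 and 31.4 FPKM from day 1 to day 11 and had its lowest value on the last day. On each day its level was above that of 84.2% to 90.5% of all coding records.

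As deposited, ZIC1 had its highest value on day 0, with 11.0 FPKM. It then had 8.50, 7.96, 8.62, 8.09, 8.39 and 7.68 FPKM on the 6 later days in order. In these values its profile was the flattest of the 4 members: the highest day was 1.44 times the lowest. Only 15.1% of the background records, whose median ratio was 1.97, had a smaller ratio. Such ratios carry the scale of the days and were not computed with the days rescaled. With the days rescaled to the same total, ZIC1 was higher on day 18 than on day 0, by a log2 difference of 0.20. From day 1 to day 11 it moved within 7.96 to 8.62 FPKM.

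ZIC5 stood at 4.73, 3.59, 3.13, 3.50, 3.84, 4.31 and 1.84 FPKM on the 7 days in order. In these deposited values it was below its day 0 level on every later day. It was lowest of the early days on day 2 and was higher at each step from there to day 11. Its lowest value was on day 18. Measured from the median change of the background records, ZIC5 was higher on day 11 than on day 0, by a log2 difference of 0.20. As deposited, its highest day was 2.57 times its lowest, the widest ratio among the members.

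ZIC4 was the lowest throughout, at 0.465, 0.612, 0.472, 0.648, 0.755, 0.821 and 0.767 FPKM on the same days. In the deposited values it was the only member that was higher on the last day than on the first. At this level the number of fragments behind each value is unknown and may be small.

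**Figure D1:**
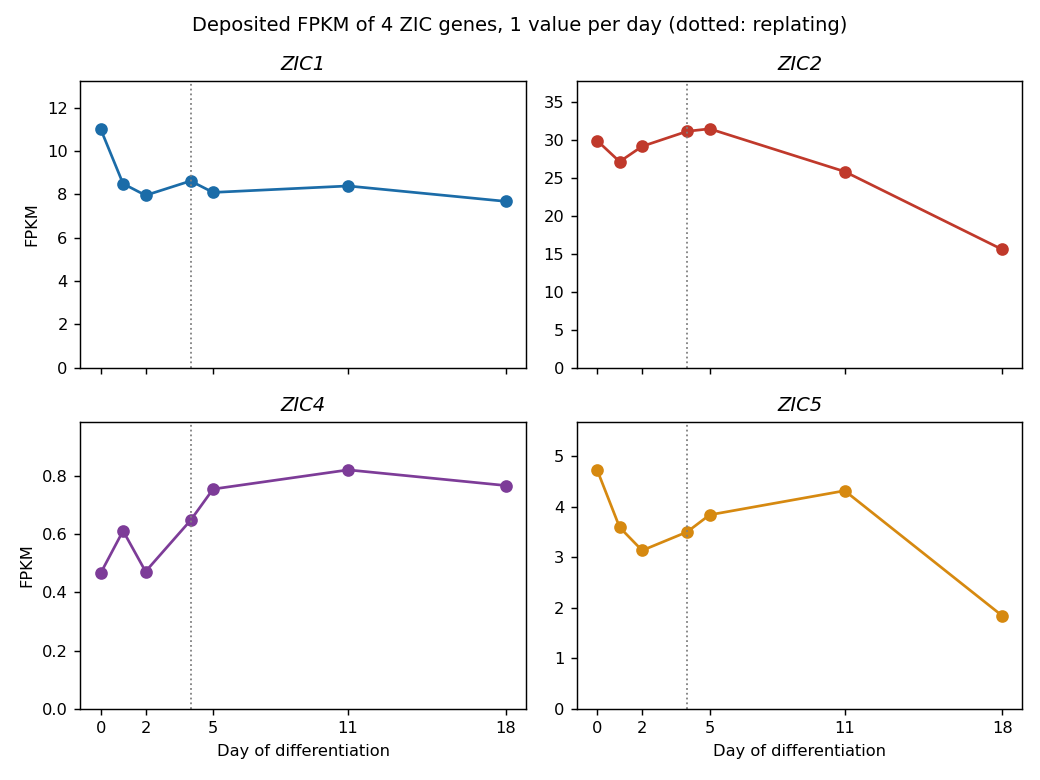
Deposited FPKM (vertical axis, from 0, its own scale in each panel) of ZIC1, ZIC2, ZIC4 and ZIC5 against day of differentiation, 1 value per day estimated by the authors over its cultures. ZIC1, ZIC2 and ZIC5 end at their lowest values, 7.68, 15.6 and 1.84 FPKM, whereas ZIC4 ends at 0.767 FPKM, above its first value of 0.465.

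Added over the 4 members, the level was 46.1 FPKM on day 0, between 39.3 and 44.1 FPKM on the days between, and 25.9 FPKM on day 18. ZIC2 made up 60.2% to 71.6% of the sum. Its share was lowest on day 18, when ZIC1 had its largest share, 29.7%.

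Day 18 was compared with day 0 as a difference of log2(FPKM + 0.1), and a difference of at least 1, which is 2-fold on that scale, was counted. ZIC5 was the only member past this limit, with a log2 difference of -1.31 (0.389 times its day 0 level). ZIC2 was just inside it at -0.94 (0.521 times), ZIC1 was at -0.52 (0.696 times) and ZIC4 at 0.62 (1.65 times). A lower value at day 18 was common: 29.9% of the background records were lower past the limit and 7.57% were higher, so 1 of 3 expressed members lower is near the background. In bulk RNA, fewer cells of a type and less RNA per cell cannot be told apart.

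The scale of the days bears on these values. Summed over all records, FPKM went from 413978 on day 0 to 251156 on day 18, and the median log2 difference of the background records was -0.60. Measured from that median, ZIC1 was at 0.08, ZIC2 at -0.34 and ZIC5 at -0.72, all inside the limit, and ZIC4 was past it at 1.22. On this recentred scale 14.7% of background records were higher past the limit and 12.1% lower. ZIC4 is read better against records of its own level: of 1297 coding records with a mean of 0.3 to 1 FPKM, 30% were higher past the limit on the deposited scale, their median was 0.19, and 60.8% had a smaller log2 difference than ZIC4.

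The steps between neighbouring days show where the differences arose. From day 0 to day 1, when FGF was withdrawn, the log2 difference was -0.37 for ZIC1, -0.39 for ZIC5, -0.14 for ZIC2 and 0.33 for ZIC4. No member passed the limit, against 6.69% of background records in either direction. ZIC1 had its largest step here in the deposited values.

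No member passed the limit at the next 4 steps either, where the background shares were 0.28% (days 1 and 2), 0.78% (days 2 and 4), 0.305% (days 4 and 5) and 6.04% (days 5 and 11). Between days 4 and 5, across replating, the members' log2 differences lay between -0.09 for ZIC1 and 0.19 for ZIC4. From day 5 to day 11, ZIC2 was lower by a log2 difference of -0.28 while ZIC5 was higher by 0.17.

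From day 11 to day 18 ZIC5 had a log2 difference of -1.19 (0.427 times), past the limit, against 3.72% of background records lower and 0.839% higher. Only 2.03% of those records had a lower difference. ZIC2 was at -0.73, lower than all but 8.68% of them, whereas ZIC1 was at -0.13 and ZIC4 at -0.09. The median of the background was -0.28 at this step, and measured from it ZIC5 was at -0.91 and ZIC2 at -0.45, while ZIC1 and ZIC4 turned positive, at 0.15 and 0.19.

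**Figure D2:**
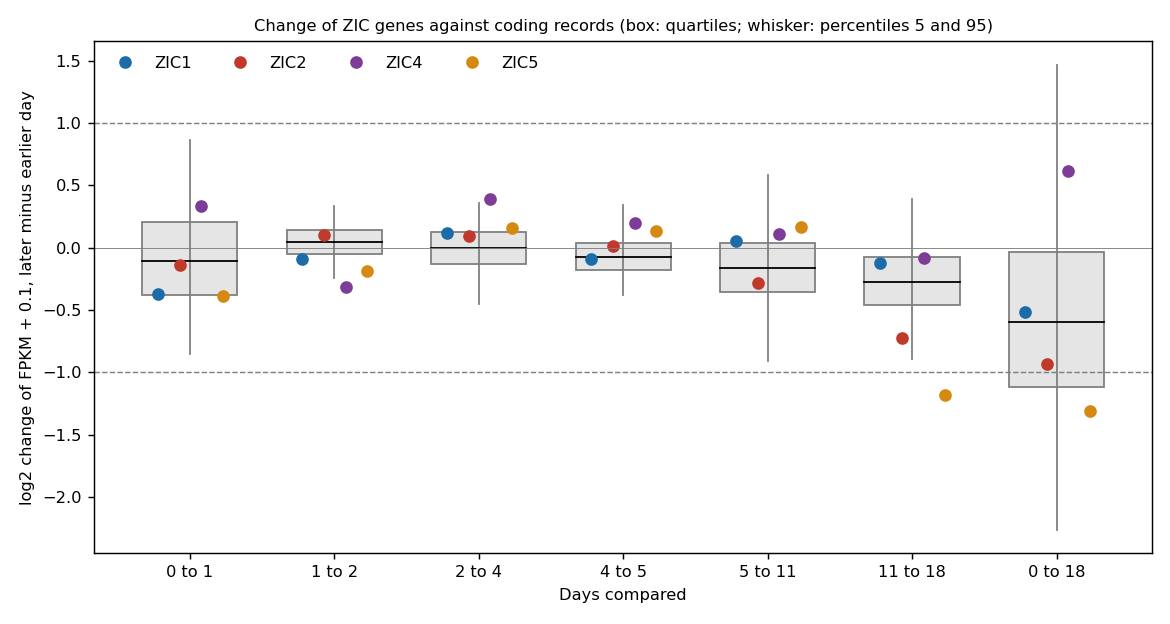
Log2 difference of FPKM + 0.1, later minus earlier day (vertical axis), for each pair of days (horizontal axis). Coloured points are the 4 members, grey boxes span the quartiles and whiskers the 5th to 95th percentile of 11793 coding records, and dashed lines mark the 2-fold limit. ZIC5 lies under the lower dashed line in the last step (-1.19) and over the whole course (-1.31), and no other point is past a line.

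Each of the 2 loci holds a divergent pair, whose starts are 2773 bases apart for ZIC1 and ZIC4 and 10140 bases apart for ZIC2 and ZIC5. Of 9743 plus-strand coding records, 10.8% have a minus-strand start upstream at the first distance or closer and 16.4% at the second. A ratio of FPKM within a day does not depend on the scale of that day. The ratio of ZIC1 to ZIC4 was 23.7 on day 0, 13.9, 16.9, 13.3, 10.7 and 10.2 on the days between, and 10.0 on day 18, so it was lower on every later day than at the start. The ratio of ZIC2 to ZIC5 was 6.32, 7.55, 9.30, 8.89, 8.19, 5.98 and 8.45 over the 7 days, with no lasting direction. The strongly expressed members, ZIC2 and ZIC1, are on different chromosomes, and their ratio was 2.71 on day 0, 3.88 on day 5 and 2.03 on day 18.

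**Figure D3:**
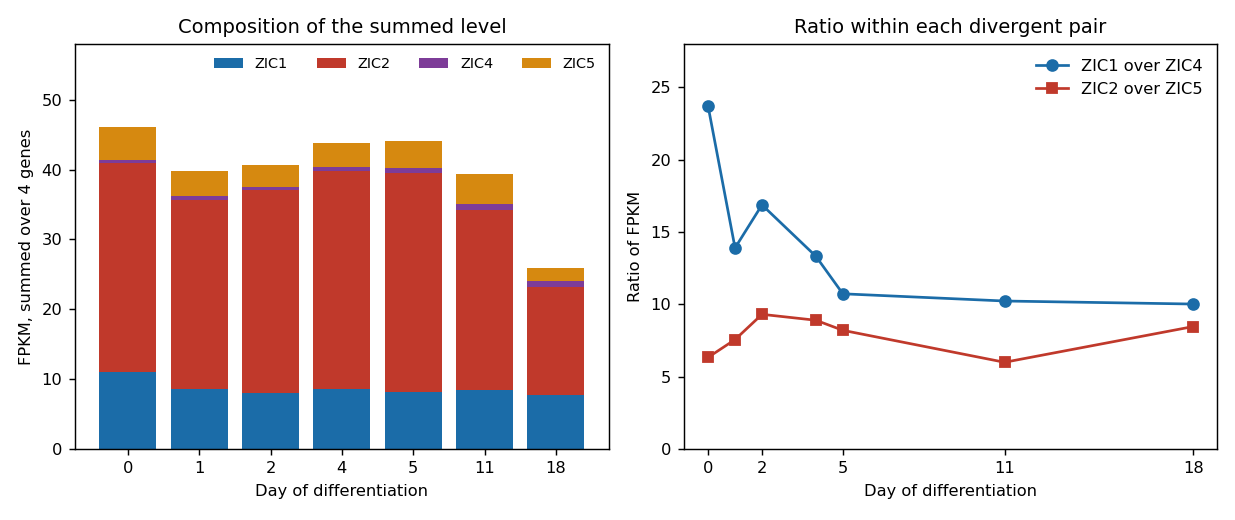
Left, FPKM summed over the 4 members on each day, with each gene's part in colour; right, the ratio of FPKM within each divergent pair against day. The sum is lowest on day 18 (25.9 FPKM), and the ZIC1 to ZIC4 ratio goes from 23.7 to 10.0 while the ZIC2 to ZIC5 ratio stays between 5.98 and 9.30.

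The catalogue also holds long noncoding records antisense to the members. linc-ZIC5-AS, at chr13:100614027-100621953 on the plus strand, shares 2684 bases with the exons of ZIC5, which is 34.4% of its own exon bases and 58.4% of those of ZIC5. It stood at 1.21, 0.753, 0.722, 0.743, 0.954, 1.28 and 0.427 FPKM over the same 7 days, between 0.210 and 0.296 times the level of ZIC5. Its log2 difference from day 0 to day 18 was -1.31, as for ZIC5. The reads are not stated to have been counted by strand, and without strand the reads of ZIC5 and of this record cannot be told apart where they overlap.

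The antisense records at the other locus were near 0. linc-ZIC1-AS shares 89.7% of its exon bases with ZIC1 and was at 0.0922 FPKM or less, and linc-ZIC4-AS, wholly inside ZIC4 exons, was at 0.0818 FPKM or less. Within 100 kb of ZIC2 or ZIC5 there were also linc-PCCA-BP, at 1.51 FPKM on day 0 and 0.580 on day 18, and CLYBL, a mitochondrial enzyme gene, at 3.35 and 1.58 FPKM. Their log2 differences were -1.24 and -1.04, past the limit, as were 29.9% of background records. Near ZIC1 and ZIC4, linc-PLSCR5 went from 0.235 to 0.431 FPKM. The record linc-ZIC4-4, which is named after ZIC4 but lies more than 100 kb from it, had a mean of 2.05 FPKM.

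**Figure D4:**
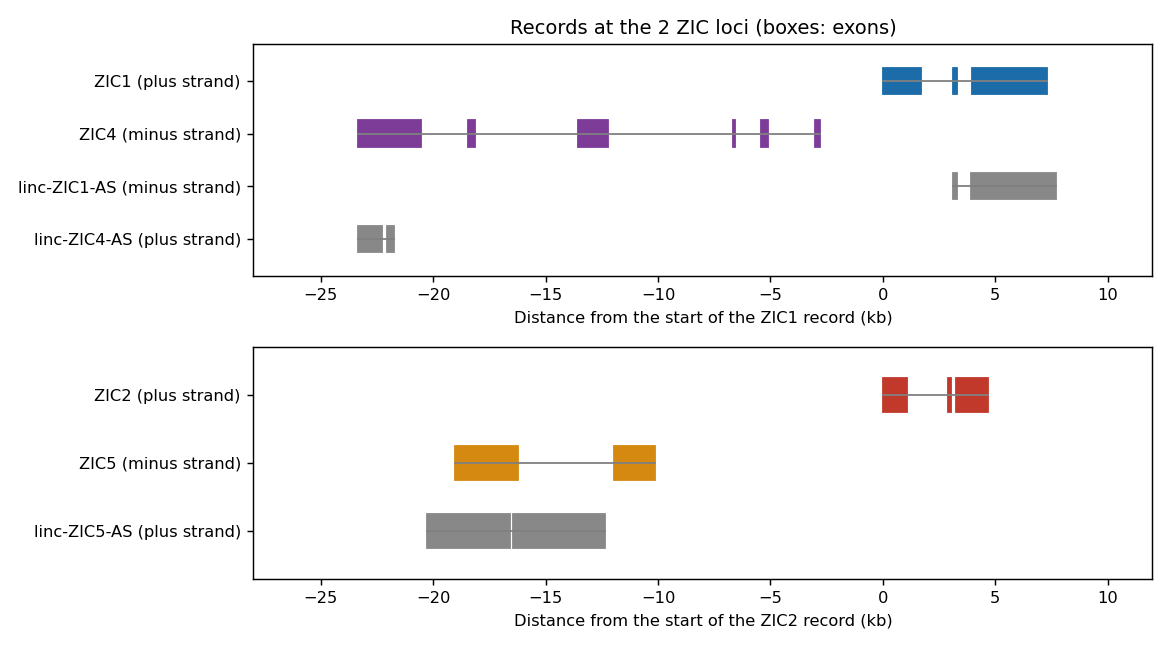
Exons (boxes) of the members and of the antisense noncoding records against distance in kb from the start of the ZIC1 record (top) and of the ZIC2 record (bottom). The pairs point away from each other, and the linc-ZIC5-AS record covers 58.4% of the exon bases of ZIC5, whereas no antisense record is drawn over ZIC2.

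The 250 bases before each start differed in composition. GC content was 81.2% before ZIC2, 69.2% before ZIC5, 63.6% before ZIC1 and 45.2% before ZIC4, against a median of 60.8% over 19274 coding starts, and CpG dinucleotides numbered 42, 25, 23 and 5 in the same order. All 250 bases before the ZIC2 record, 189 before ZIC4 and 29 before ZIC1 lie in GENCODE exons, counted for any gene, the member itself included. GENCODE starts ZIC2 at chr13:100634038, ZIC4 at chr3:147124596 and ZIC1 at chr3:147111209, each upstream of the record start used here. These windows therefore need not be promoters. On both strands, CCAAT was found 2 times and the E-box CACGTG once, all before ZIC1, and TATAAA, the GLI word GACCACCCA and CAGCAGG were found before no member. Of the 19274 starts, 32.9% held CCAAT, 1350 in number held CACGTG, 9.07% held TATAAA, 0.182% held GACCACCCA and 8.37% held CAGCAGG. No match says only that these letters are not in this window.

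The coding records whose profile over the 7 days was most like each member were ranked by the root mean square difference of log2(FPKM + 0.1), after subtraction of each profile's mean. For ZIC1 they included HOMER1 (0.0196), GTPBP1 (0.0422), SRCAP (0.0449) and ABHD10 (0.0508). For ZIC2 a record without a symbol came first (0.0573), then TGFBR1 (0.0596), a receptor of TGF-beta, ZSWIM7 (0.0635), ACTR5 (0.0708) and C1orf57 (0.0717). For ZIC4 they were ZNF521 (0.0664), ETFB (0.0818), KIAA0240 (0.0846), a record without a symbol (0.0907) and AKAP9 (0.0937). STARD13 (0.107), GCDH (0.108), MPP6 (0.109), HMGN2 (0.119) and PYCRL (0.124) were nearest to ZIC5.

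Members were not among each other's 5 nearest records, and their ranks beyond these are not given. Only coding records with a mean of at least 1 FPKM were ranked, so ZIC4 could not appear as a neighbour. ZIC2 and ZIC5 were the closest members to each other, at 0.219, and Pearson's r between their log2 values over the 7 days was 0.83. Both had their lowest value on day 18, and r without that day was not computed. They moved in the same direction at 4 steps between neighbouring days and in opposite directions at 2. ZIC4 and ZIC5 were the farthest apart, at 0.531. These are descriptions over 7 days that share 1 differentiation series.

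Genes related to the ZIC factors were read from lists, each with the number of its genes at a mean of at least 1 FPKM and the same limit, from day 0 to day 18. Beside every such count stand the background shares of 7.57% higher and 29.9% lower, and with so few genes a list nothing particular to it is read from them. Among GLI and GLIS relatives 5 of 6 were expressed, 0 were higher and 1 was lower past the limit, and their median log2 difference was -0.71, beside -0.60 for the background. GLI1, a target and effector of Hedgehog signalling, was the gene past the limit, with 1.81 FPKM on day 0 and 0.352 on day 18. GLI3, which acts mainly as a repressor, went from 26.6 to 16.2 FPKM, and GLI2, in a record that carries another symbol too, had 0.593 times its day 0 level of 20.2 FPKM on day 18.

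Neural plate border genes had 5 of 9 expressed, 3 higher and 1 lower, with a median of 1.35. The higher genes were TFAP2B (21.9 to 56.0 FPKM), TFAP2A (0.0415 to 2.67 FPKM) and PAX7 (0.697 to 2.55 FPKM), and the lower was GBX2 (51.9 to 18.8 FPKM), which helps to place the hindbrain boundary. PAX3, which acts with ZIC1 at the border, was at 31.0 FPKM on day 0, 62.3 on day 11 and 27.9 on day 18. Of the neural crest genes, 3 of 6 were expressed: SOX9 was higher (7.25 to 34.8 FPKM), and SNAI2 (13.3 to 0.525 FPKM) and ETS1 (37.1 to 0.547 FPKM) were lower, with a median of -4.42. The crest specifiers FOXD3 and SOX10 were at a mean of 0.0235 and 0.0615 FPKM.

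Few roof plate and dorsal midline genes were expressed, 2 of 11. LMX1B, which specifies dorsal and serotonergic cells, went from 1.19 to 21.1 FPKM, and BMP7 from 21.8 to 9.57. The defining roof plate genes WNT1, GDF7 and LMX1A had means of 0.00369, 0.0654 and 0.0369 FPKM. Among cerebellar granule lineage genes 6 of 11 were expressed, 3 higher and 2 lower, with a median of 0.76. NHLH1 went from 2.24 to 17.1 FPKM, PAX6 from 4.31 to 10.4 and NEUROD1, in a record with a further symbol, from 1.55 to 5.93. UNC5C, a netrin receptor, went from 10.0 to 1.30 FPKM and EN2 from 22.2 to 7.84. ATOH1, which defines granule precursors, was at a mean of 0.0318 FPKM.

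Holoprosencephaly genes, the group to which ZIC2 belongs by its human phenotype, had 7 of 10 expressed, 1 higher and 3 lower, with a median of -0.77, beside 29.9% of background records lower. The Notch ligand DLL1 went from 4.12 to 21.3 FPKM. Left out of the counts for a mean under 1 FPKM were SIX3, SHH and FGF8. Each was higher past the limit, from 0.174 to 1.74 FPKM, 0 to 0.286 and 0.0365 to 0.188. Lower were the transcriptional repressor TGIF1 (24.1 to 11.6 FPKM), the Hedgehog coreceptor CDON (15.9 to 4.73 FPKM) and DISP1 (5.43 to 2.42 FPKM), which releases Hedgehog ligands. Of 4 genes described as downstream of ZIC factors, EPHB1, an axon guidance receptor read from a record with a further symbol, went from 3.99 to 11.8 FPKM and APOE from 7.92 to 1.80, while SLC6A4 and DRD1 had means of 0.0346 and 0.0146 FPKM.

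**Figure D5:**
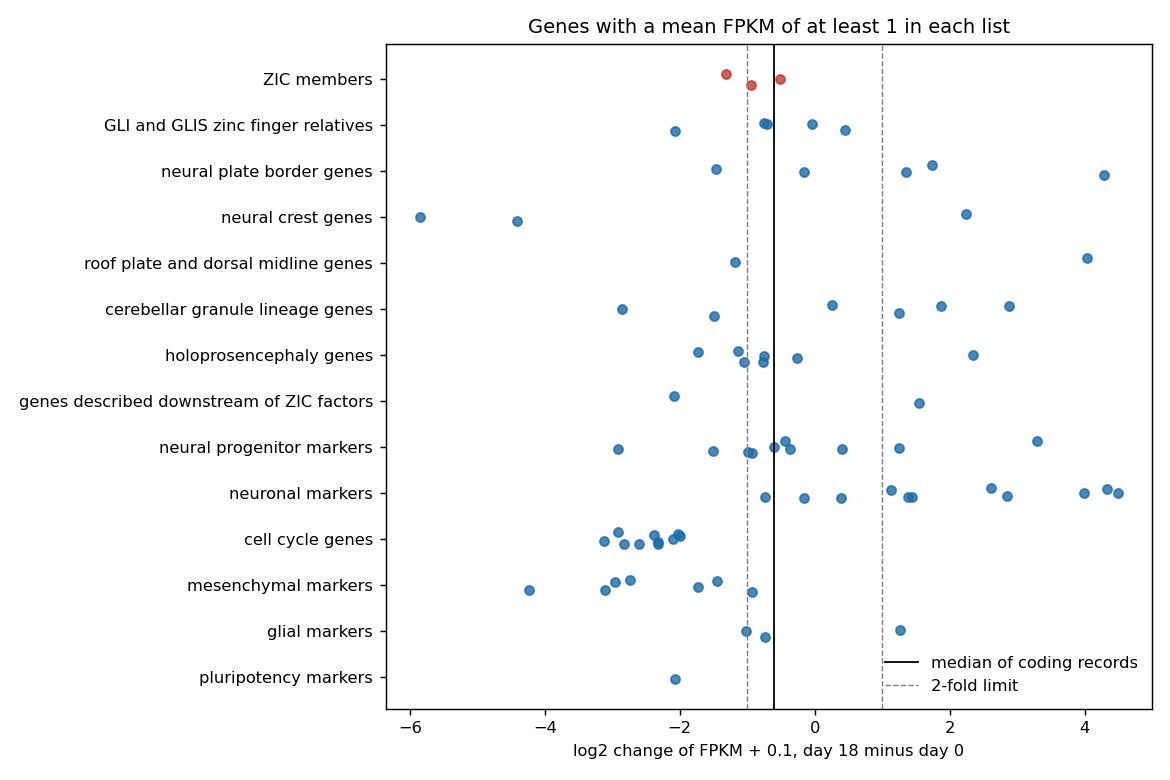
Log2 difference of FPKM + 0.1, day 18 minus day 0 (horizontal axis), of every gene with a mean of at least 1 FPKM in each list (rows), with ZIC1, ZIC2 and ZIC5 in red. The black line is the background median (-0.60) and dashed lines the 2-fold limit; these members span -1.31 to -0.52, while all 10 cell cycle genes are under the lower limit.

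The cell types were checked against markers. The background shares of 7.57% higher and 29.9% lower from day 0 to day 18 stand beside these counts too. All 10 neural progenitor markers were expressed, 2 higher past the limit, HES5 (1.95 to 20.0 FPKM) and PAX6, and 2 lower, NES (513 to 180 FPKM) and PROM1 (38.8 to 5.06 FPKM), with SOX2 (126 to 66.1 FPKM) and FABP7 (195 to 258 FPKM) inside it. Expressed too were 11 neuronal markers, 8 of which were higher past the limit, including DCX (5.46 to 88.0 FPKM). Inside the limit were TUBB3 (382 to 502 FPKM), in a record with further symbols, GAP43 (193 to 173 FPKM) and NEFM (179 to 108 FPKM). All 10 cell cycle genes were lower, with a median of -2.35, and their summed level went from 885 FPKM on day 0 to 173 on day 18. Mesenchymal markers were present too, 7 of 10 expressed and 6 lower, and summed to 665 FPKM on day 0 and 59.7 on day 18, with COL1A1 listed at 0 on every day. Among glial markers 3 of 10 were expressed, 1 higher and 1 lower, with a sum of 44.03 FPKM on day 0 and 38.4 on day 18, and GFAP had a mean of 0.0646 FPKM. Of 6 pluripotency markers only DPPA4 was expressed, lower at day 18, and POU5F1 had a mean of 0.0620 FPKM. From day 11 to day 18, when ZIC5 and ZIC2 were lower, the neuronal sum went from 1897 to 1924 FPKM. The cell cycle sum went from 415 to 173 FPKM and the mesenchymal sum from 112 to 59.7. The progenitor sum went from 2574 to 2086 FPKM, of which VIM made up 1844 and 1493. FPKM summed over all records went from 319232 to 251156 at this step. Within the neuronal sum STMN2 went from 517 to 727 FPKM, while TUBB3 went from 647 to 502 and NEFM from 196 to 108. The part of these cell types in the values of the ZIC genes was not tested.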

How the data were processed

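Polyadenylated RNA of H1-derived neural progenitor cells was profiled by paired-end RNA-Seq on 7 days (20 samples, grouped by the day in their titles). Per the labels and the study's methods, alignment by the authors was to hg19 (TopHat2), transcripts came from Cufflinks and were joined to a noncoding catalogue and coding genes, and FPKM was estimated with Cuffdiff2 at default options, whose default library type is unstranded; versions are not given in the sources used here. The deposited FPKM values hold 1 number per record and day over its cultures, and 0 columns hold single samples, so depth and replicate spread are unknown. Record names, strand and exon positions (other annotation, in bases of hg19) came from the deposited comparison table. Its columns of fold changes, test statistics and p-values for neighbouring days hold the authors' own comparisons and were not used.

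Levels were compared as differences of log2(FPKM + 0.1), which understates changes of low genes; a log2 difference of at least 1 was counted, with coding records of mean FPKM of at least 1 as background. As alternatives, pseudocounts of 1 and 0.01, no filter, recentring on the median, rescaling to the same total and summing records were tried. limma, named in the design for single-sample values, could not be run. Per symbol the record with the highest mean was kept. The members, lists and alternatives were chosen with earlier results of these data known and are not independent of them. Genes named were the members, records within 100 kb, the 5 nearest profiles of each member (records on the Y chromosome were left out of this ranking, a choice made after its values were seen) and, from each list, genes past the limit and others of high mean, and defining genes near 0, which were named after their values were seen. Some items that fall under these rules are not reported here. RBFOX3 and LIN28A had no record, and 970 records had no symbol. Sequences and annotation came from GRCh37, the same assembly as hg19, with GENCODE v44lift37. Exons were aligned with Biopython 1.88 (match 1, mismatch -1, gap opening -3, gap extension -1, free end gaps). Calculations used Python 3.11.15, pandas 2.3.3, numpy 2.4.6 and matplotlib 3.10.9, and the counting and ranking steps were tested on simulated data.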

Additional observations from a re-analysis of the deposited data

How the results depend on the processing

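The direction and side of the 2-fold limit were compared over 28 log2 differences of the 4 members (6 steps and day 18 against day 0). All 28 were kept with a pseudocount of 0.01 and 27 with a pseudocount of 1, under which ZIC5 at the last step was at -0.90, and the summed records gave the same 4 values. Recentring each day on the coding median kept 22 and rescaling each day to the same total kept 20. From day 0 to day 18 these scalings gave 0.0825 and 0.20 for ZIC1, turning its direction, 1.22 and 1.24 for ZIC4, now past the limit, and -0.72 and -0.62 for ZIC5, no longer past it; ZIC2 stayed lower and inside it. At the last step they gave 0.15 and 0.22 for ZIC1, 0.19 and 0.23 for ZIC4, and -0.91 and -0.86 for ZIC5. With the same total, ZIC2 from day 0 to day 1 was at 0.0718 and ZIC1 across the replating step at 0.0118. These shifts follow from the scaling itself. The median log2 difference of the background was -0.60 from day 0 to day 18 and -0.28 at the last step. It was -0.11 from day 0 to day 1 and -0.07 across replating, and total FPKM differed between the days too.

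The count of coding records higher at day 18, 893, was 1623 without the filter and 1729 after recentring, and the 3529 lower records were 1431 after recentring. Without the filter, 10 of 12 counts of records past the limit at single steps moved by more than 1.5 times: at the first step, 425 higher and 364 lower became 668 and 559, and at the last step, 99 higher became 261 without the filter and 216 after recentring. With a pseudocount of 1 the 439 lower at that step were 212, and after recentring 166. Single list counts, such as the 3 holoprosencephaly genes lower (1 after recentring and 1 with a pseudocount of 1), depend on these settings too.

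No paired analysis was possible because the files hold 1 pooled value per day, and neither a replicate block nor fits without single replicates were run. From the FPKM values alone, without single cultures or depth, no difference was set against counting error or culture spread, and the authors' tests of neighbouring days were not used.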
